A study of Mus musculus with 18 samples.

Results

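The clustered histone genes encode the linker histone H1 and the core histones H2A, H2B, H3 and H4 from arrays of short, mostly intronless genes. Members were the rows of the deposited gene counts whose symbol starts with Hist1h, Hist2h, Hist3h or Hist4h and that held 10 or more counts summed over the 18 libraries. Of 24028 genes in the table, 63 had such a symbol and 59 were members. They comprised 5 H1, 14 H2A, 17 H2B, 10 H3 and 13 H4 genes. The Hist1 cluster on chromosome 13 held 49 of them, the Hist2 cluster on chromosome 3 held 8, and Hist3h2ba on chromosome 11 and Hist4h4 on chromosome 6 were single members. The rule used no difference between groups.

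The libraries were made from the polyadenylated RNA of C2C12 cells, mouse muscle precursors, that had been selected with puromycin for an integrated transgene. The mDux line (clone 15B) carried a codon-altered mouse Dux, the DUX4 line (clone 9) a codon-altered human DUX4, and the Luc line the luciferase Luc2A, each driven by doxycycline. Doxycycline was given at 2 µg/ml for 36 h to the induced cultures. The uninduced ones had no drug and were collected after the same 36 h. Each of the 6 groups held 3 libraries from separate cultures, so p-values measure the spread between cultures of 1 line. All groups share the myoblast background and the integrated inducible cassette, and each transgene is represented by 1 line (for mDux and DUX4 the clone named), so that line, clone and transgene cannot be told apart. Reads of the codon-altered transgenes were not analysed here, so the counts give no check of transgene expression.

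Mouse Dux and its human counterpart DUX4 bind DNA through paired homeodomains and are known for switching on genes of the early embryo. Replication-dependent histone mRNAs are made mainly in S phase and are unusual among messenger RNAs in that they normally end in a conserved stem-loop rather than in a poly(A) tail. The stem-loop binding protein Slbp and the U7 small nuclear ribonucleoprotein direct cleavage just after the stem-loop. Some histone genes also yield polyadenylated transcripts from a signal further downstream, which is known for instance in differentiated cells. A library of polyadenylated RNA therefore reports only those histone transcripts that entered the poly(A) selection, and the counts do not tell where a transcript ended.

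The 3' ends of the members are shown first because they carry the element that normally replaces the tail. Among 25 members whose annotated transcript (GENCODE vM21, GRCm38) ran at least 100 bases past the stop codon, 21 (84.0%) held the stem-loop in that window. The same search matched 30 of 19925 protein-coding genes (0.151%), of which 26 had a symbol starting with Hist. Counting shorter windows too, 40 members showed the stem-loop, starting 22 to 59 bases after the stop codon with a median of 32. In 16 members the annotated transcript ended too early to tell. Of the other 4 among those 25, Hist1h2bp held the stem-loop in a shorter annotated transcript and counts among the 40, and Hist1h2bc, Hist1h2br and Hist2h2be had no match in any annotated transcript. The stem was GGCTC in 28 members, GGCCC in 10 and GGTCC in 2, and every GGCCC or GGTCC stem belonged to an H4 gene. One example of each of the 8 variants follows, with the 16-base stem-loop in capitals.
Hist1h3b: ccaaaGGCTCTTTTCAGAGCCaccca
Hist1h3c: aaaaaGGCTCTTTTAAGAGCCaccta
Hist1h3g: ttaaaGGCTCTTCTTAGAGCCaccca
Hist2h2ac: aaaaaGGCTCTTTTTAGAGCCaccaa
Hist1h4d: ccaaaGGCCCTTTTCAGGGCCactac
Hist1h4i: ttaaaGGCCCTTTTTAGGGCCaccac
Hist1h4b: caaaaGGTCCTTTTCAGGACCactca
Hist1h4a: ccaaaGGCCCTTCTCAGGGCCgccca
The form printed for Hist1h3b occurred in 21 members of all classes other than H4. The form printed for Hist1h4d occurred in 7 H4 genes.

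Promoters are shown for 4 members of different classes whose responses are described further on. RefSeq windows (GRCm38.p6, 250 bases before to 50 after the annotated start, which is position 0) were matched for 54 members. The motifs searched on both strands were the octamer ATTTGCAT, the CCAAT box, TATAAA and the published DUX4 consensus, and no match of one motif overlapped another. The octamer was present in 12 of 54 member promoters (22.2%) against 1.97% of 27025 promoters, and these were 5 of 14 H2A and 7 of 15 H2B promoters. CCAAT was present in 45 of 54 (83.3%) against 41.1%, in every H1, H2A, H2B and H3 promoter matched but in 3 of 12 H4 promoters. TATAAA was present in 32 of 54 (59.3%) against 15.7%. The DUX4 consensus was present in 0 of 54, against 0.126% of promoters. At so low a share a match in 54 windows was unlikely, so the 0 tells nothing about binding by either factor. Capitals mark the octamer, CCAAT and TATAAA on either strand, and each sequence is given on the strand of its gene.
Hist1h1c, chr13:23738557-23738856, plus strand: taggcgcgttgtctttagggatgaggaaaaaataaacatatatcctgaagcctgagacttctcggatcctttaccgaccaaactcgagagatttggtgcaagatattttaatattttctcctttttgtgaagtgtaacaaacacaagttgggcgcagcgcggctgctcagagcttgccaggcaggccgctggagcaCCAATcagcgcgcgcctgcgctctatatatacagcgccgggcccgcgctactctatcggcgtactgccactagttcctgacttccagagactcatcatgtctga
Hist1h2bg, chr13:23571150-23571449, plus strand: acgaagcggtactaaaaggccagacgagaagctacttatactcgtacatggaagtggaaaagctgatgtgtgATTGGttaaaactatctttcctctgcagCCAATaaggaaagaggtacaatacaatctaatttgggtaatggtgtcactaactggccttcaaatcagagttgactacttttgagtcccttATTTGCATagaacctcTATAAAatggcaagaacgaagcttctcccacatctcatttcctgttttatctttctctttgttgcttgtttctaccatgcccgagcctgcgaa
Hist1h3b, chr13:23752095-23752394, plus strand: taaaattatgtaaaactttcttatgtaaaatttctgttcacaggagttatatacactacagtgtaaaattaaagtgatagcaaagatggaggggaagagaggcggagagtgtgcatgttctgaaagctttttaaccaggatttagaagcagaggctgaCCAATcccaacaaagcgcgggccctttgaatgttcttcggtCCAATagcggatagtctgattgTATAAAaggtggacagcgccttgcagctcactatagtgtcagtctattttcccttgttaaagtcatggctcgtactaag
Hist1h4d, chr13:23581318-23581617, plus strand: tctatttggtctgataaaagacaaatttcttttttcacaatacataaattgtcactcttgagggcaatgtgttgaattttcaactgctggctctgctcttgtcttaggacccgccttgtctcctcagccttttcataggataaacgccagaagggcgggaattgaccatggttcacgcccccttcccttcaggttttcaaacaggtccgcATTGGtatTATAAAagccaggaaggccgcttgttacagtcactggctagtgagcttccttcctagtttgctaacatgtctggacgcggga
The window of Hist1h2bg, an H2B gene, spans the stretch it shares with the H2A gene Hist1h2ae, whose start lies on the opposite strand. It holds the octamer at -59 and TATAAA at -43. The windows of Hist1h3b and Hist1h4d hold TATAAA at -29 and -32.

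Many members encode the same protein. All 13 H4 genes encoded one 103-residue protein, with coding sequences 85.3% to 100% identical. One H2A protein was shared by 8 genes and 1 H3 protein by 6 genes, namely Hist1h3b, Hist1h3c, Hist1h3e, Hist1h3f, Hist2h3b and Hist2h3c1. Another H3 protein was shared by Hist1h3a, Hist1h3g, Hist1h3h and Hist1h3i. The 59 members fell into 26 proteins. At least 80% of the 50-base stretches of the annotated transcripts were found in no other gene for 12 members, and under 20% for 16 members. Levels of near-identical copies are therefore uncertain, and a sum over members can hold one read more than once if the counting allowed it.

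Total counts per library ran from 11010586 to 17179642, and members took 0.0126% to 0.142% of them. Levels are given in CPM, a gene's counts scaled to the library's counts over tested genes after TMM adjustment for composition. CPM are not divided by gene length, so levels of different genes are not ranked. Of the 59 members, 55 passed the edgeR filter on low counts and were tested with edgeR's quasi-likelihood test in one model of all 18 libraries, with Benjamini-Hochberg adjustment over 13602 genes. A change was called at an adjusted p under 0.05, and a log2 fold change is given with its standard error (SE). A gene can pass the filter through one group alone, and with the Luc libraries alone 45 members passed. One library stood apart: induced mDux replicate 1 differed from its 2 partners with a chi-square per degree of freedom of 34.0 and 36.4 across genes, against 2.14 between those partners and at most 5.25 in any other group. Of the cell line's 9 myoblast markers, Des and Chrna1 were above 70 CPM in every group, and the list summed to 875 CPM or more in every library. Myod1 was at 3.68 CPM in induced DUX4 cultures, Myf5 at 0.258 and 0.0438 CPM in the mDux groups, and Pax7 at or under 0.161 CPM in the DUX4 and Luc groups. Summed markers of differentiated muscle, 7 genes including Myog and Myh3, lay between 423 and 859 CPM in the 6 Luc libraries and between 3.96 and 13.1 CPM in the other 12.

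Induction of mouse Dux was accompanied by a rise of every tested histone gene. All 55 tested members were called higher in induced than in uninduced mDux cultures, whereas 34.1% of the 13602 genes tested were called higher. By edgeR 0 were lower, 0 also at an unadjusted p under 0.05 and by DESeq2, against 34.8% of all genes. Hist1h4d, Hist1h4f, Hist1h2ak, Hist1h3e, Hist1h1a and Hist1h1b averaged at most 0.543 CPM in every group other than induced mDux. They may have passed the filter only through the group in which they are high, so their calls are not independent of it. Hist1h4d and Hist1h4f, with the largest fitted changes, are among them. The median log2 fold change was 3.52 (range 0.59 to 5.71) against a median of -0.01 for all genes, and 40 members rose by at least 2 on the log2 scale. In each of the 55 the lowest induced library exceeded the highest uninduced one. How many of the 13602 genes did so was not counted, so no share of all genes stands beside this. Summed over all 59 members, including those not tested, the level rose 5.21-fold, from 241 to 1256 CPM (means, n = 3). The exact two-sided permutation test gave p = 0.10, the smallest value that 3 against 3 libraries allow. In bulk RNA, a change in the number of cells making a transcript and a change in the amount per cell cannot be told apart.

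Induced mDux replicate 1 was the highest of its group for 53 of the 55 members, with a median of 1.46 times the mean of its partners. Without it, all 55 calls stood, with a median log2 fold change of 3.29 and a log2 ratio of the sums of 2.17 in place of 2.38. The markers of differentiated muscle summed to 11.1 to 13.1 CPM before and 3.96 to 5.13 CPM after induction. The 5 fibroblast markers, of which Tcf21 stayed at 0, summed to 23.1 to 26.0 CPM before and 31.6 to 38.8 CPM after, with Twist2 at 10.1 and 26.3 CPM and Pdgfra at 13.7 and 7.52 CPM. The 4 macrophage and blood markers, with Hbb-bs at 0, summed to 0.934 to 1.53 CPM before and 1.61 to 3.29 CPM after. The 4 adipocyte markers, with Plin1 at 0, summed to 0 to 0.191 CPM before and 1.28 to 1.98 CPM after. Summed endothelial and epithelial markers were also higher in every induced library, at most 0.806 and 1.32 CPM, and summed myoblast markers overlapped between the groups. That overlap hides opposite moves. Des rose from 718 to 947.5 CPM and Vcam1 from 91.2 to 201 CPM. All other myoblast markers fell, among them Chrna1 from 468 to 367 CPM and Itga7 from 222.5 to 166 CPM. Cdh15 fell from 190 to 54.5 CPM, Myod1 from 123 to 88.1 CPM and Pax7 from 15.1 to 9.30 CPM. The part of these markers in the rise was not tested.

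**Figure D1:**
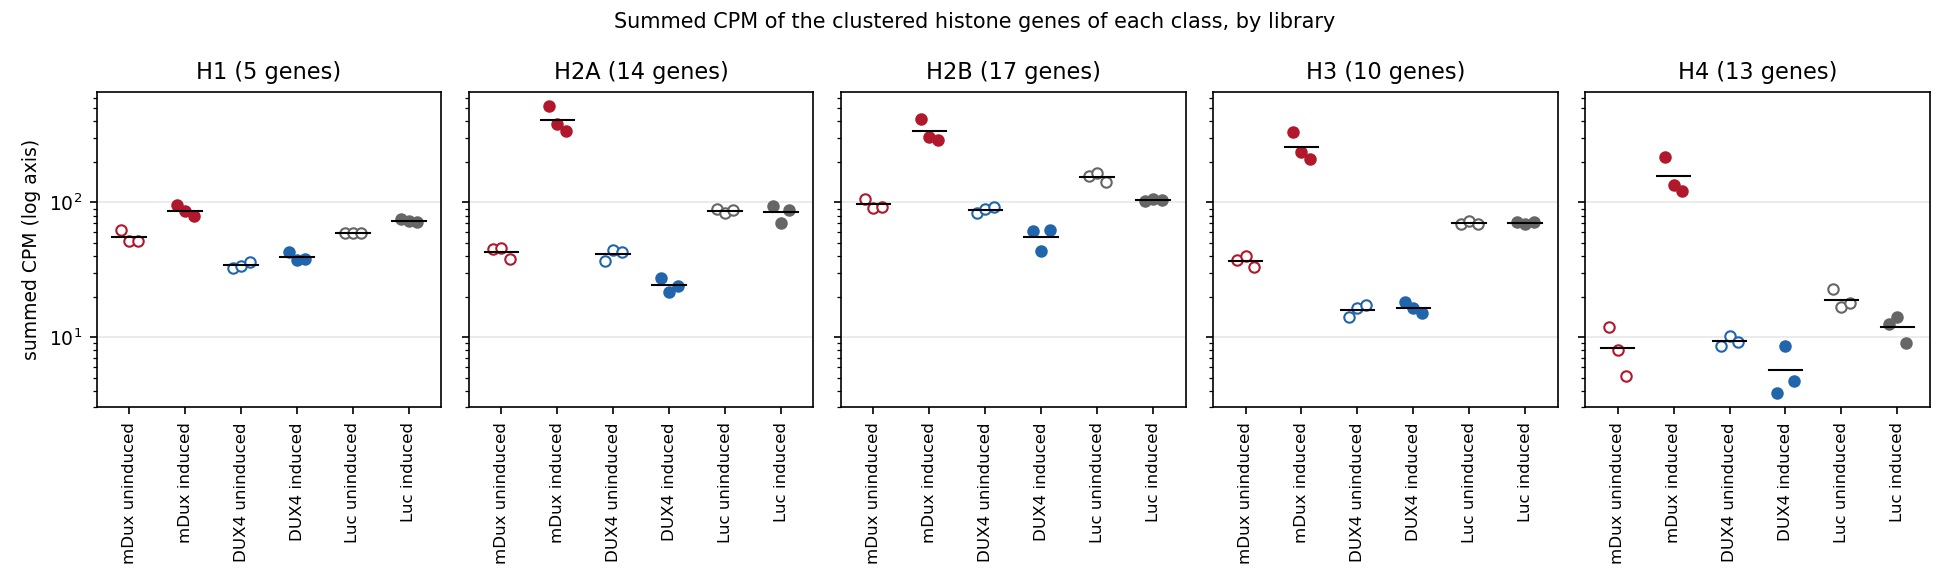
Summed CPM (log axis) of the members of each histone class in each of the 18 libraries; open circles are uninduced and filled circles induced cultures of the mDux (red), DUX4 (blue) and Luc (grey) lines, and horizontal lines are means of 3 libraries. The induced mDux libraries lie above all others in every class, least for H1 (79.6 to 95.2 CPM) and most for H4 (121 to 218 CPM against 3.83 to 22.6 in the rest).

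The size of the rise differed between histone classes. Summed H4 rose 18.9-fold, H2A 9.60-fold, H3 7.04-fold, H2B 3.48-fold and H1 1.57-fold. H4 thus went from 3.40% ± 1.10 to 12.4% ± 1.22 of the summed histone CPM (SD, n = 3), and H2A from 17.9% ± 1.38 to 32.9% ± 0.325. H1 went from 23.0% ± 1.14 to 7.08% ± 0.922 and H2B from 40.3% ± 1.81 to 27.0% ± 0.887. In none of these 4 shares did the induced and uninduced mDux libraries overlap.

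H4, which pairs with H3 at the centre of the nucleosome, gave the largest fold changes. All 11 tested H4 genes were called higher, with log2 fold changes from 3.61 to 5.71 (median 4.23). Hist1h4i, the H4 gene with the most counts, measured 2.04, 1.57 and 1.47 CPM in uninduced and 40.6, 25.4 and 24.8 CPM in induced mDux cultures. Its log2 fold change was 4.19 (SE 0.21, adjusted p = 1.40e-12), and the lowest induced library lay far above the highest uninduced one. Hist1h4m rose from 0.718 ± 0.0705 to 19.8 ± 5.46 CPM (SD, n = 3), a log2 fold change of 4.78. Hist1h4n rose by 4.70, and under 20% of the 50-base stretches of either gene are unique.

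Most 50-base stretches of the annotated Hist1h4d transcript occur in no other gene (89.8%), but that transcript is longer than the RefSeq gene. Hist1h4d showed the largest fitted change of all members (log2 fold change 5.71, SE 0.44, adjusted p = 7.59e-10 by edgeR). It was close to absent without induction, at 0, 0.116 and 0.0637 CPM, and reached 5.13, 3.53 and 3.0 CPM with induction. Only 3 counts stood against 166, a ratio of 58.7 with an exact 95% interval of 19.7 to 287 that covers counting error only. Hist1h4f had the next largest change at 5.32 (SE 0.46), and was at 0.340, 0.116 and 0 CPM before and 8.09, 4.66 and 4.10 CPM after induction.

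The 10 H3 genes split by cluster. The 8 H3 genes of Hist1 rose by 4.52 to 4.83 on the log2 scale, whereas Hist2h3c1 and Hist2h3b of the Hist2 cluster rose by 1.16 and 1.38. Hist1h3b measured 1.27, 1.28 and 1.27 CPM in uninduced and 43.1, 28.4 and 25.9 CPM in induced mDux cultures (log2 fold change 4.67, SE 0.22, adjusted p = 6.00e-13). Hist1h3c, which encodes the same protein, had the largest H3 change at 4.83 (SE 0.23), from 1.13 ± 0.275 to 31.4 ± 8.98 CPM. Hist1h3f, Hist1h3e, Hist1h3a and Hist1h3g rose by 4.79, 4.76, 4.68 and 4.52. The copies Hist1h3h and Hist1h3i were each called higher by 4.65, and under 20% of their 50-base stretches are unique, so their reads may be shared.

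Hist2h3c1 took more counts than any other H3 member, and its uninduced level was already 26.3, 29.5 and 23.5 CPM in the mDux line. It reached 67.6, 59.8 and 49.9 CPM with induction, so the groups did not overlap, but the log2 fold change was 1.16 (SE 0.09, adjusted p = 1.78e-09). None of the 50-base stretches of Hist2h3c1 is unique (0%), so its counts may be shared with its copies. The Hist2 H3 genes rose 2.27-fold in sum, from 29.4 to 66.9 CPM, while those of Hist1 rose 25.7-fold, from 7.51 to 193 CPM.

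The 11 H2A genes of Hist1 rose by similar amounts, 3.43 to 4.91 on the log2 scale with a median of 3.56. Under 20% of the 50-base stretches of Hist1h2af, Hist1h2ah, Hist1h2ai, Hist1h2an and Hist1h2ao are unique, so their reads may be shared. Hist1h2ad measured 5.35, 4.99 and 4.14 CPM without and 87.5, 62.8 and 56.7 CPM with induction (log2 fold change 3.85, SE 0.17, adjusted p = 1.09e-13). Hist1h2ao rose from 4.74 ± 0.712 to 54.6 ± 13.2 CPM, a change of 3.53. Hist1h2ak had the largest H2A change, 4.91 (SE 0.34), and its protein is shared with no other member. It was at 0.170, 0.290 and 0.255 CPM without and at 9.93, 6.46 and 6.30 CPM with induction. The Hist2 genes Hist2h2aa2 and Hist2h2ac rose by 1.60 (SE 0.10) and 1.77 (SE 0.19), and Hist2h2aa2 likewise has no unique 50-base stretch.

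H2B genes had the smallest median change among core histones. The 16 tested H2B genes rose by 0.73 to 3.52 on the log2 scale, with a median of 2.00. Hist1h2bc and Hist1h2br, the 2 H2B genes with the most counts, were already at 27.3 ± 0.839 and 17.5 ± 2.83 CPM in uninduced mDux cultures. Hist1h2bc measured 28.2, 26.5 and 27.2 CPM without and 54.5, 40.6 and 40.6 CPM with induction. Its log2 fold change of 0.73 (SE 0.10, adjusted p = 1.84e-06) was the smallest among core histone genes. Hist1h2br reached 71.1 ± 14.9 CPM, a change of 2.04 (SE 0.13). Both have long annotated 3' ends without a stem-loop match.

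Hist1h2bb changed most among H2B genes, by 3.52 (SE 0.22), from 1.36, 1.51 and 1.08 CPM to 18.2, 14.3 and 13 CPM. Hist1h2bp and Hist1h2bf followed with 2.68 and 2.57. The testis histone gene Hist1h2ba rose by 1.42 (SE 0.17), from 2.49 ± 0.240 to 6.60 ± 1.35 CPM.

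Linker histone H1 binds DNA at the entry of the nucleosome and gave the smallest change. Hist1h1c, which took more counts than any other member, measured 52.3, 43.9 and 44.1 CPM without and 77.0, 70.8 and 63.1 CPM with induction. The log2 fold change was 0.59 (SE 0.08, adjusted p = 9.37e-07), with no overlap between groups. Hist1h1d and Hist1h1e rose by 0.70 (SE 0.12) and 0.92 (SE 0.15). The scarcer Hist1h1a and Hist1h1b rose by 3.72 (SE 0.49) and 2.34 (SE 0.41), yet stayed at 1.28 ± 0.133 and 1.29 ± 0.187 CPM when induced.

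**Figure D2:**
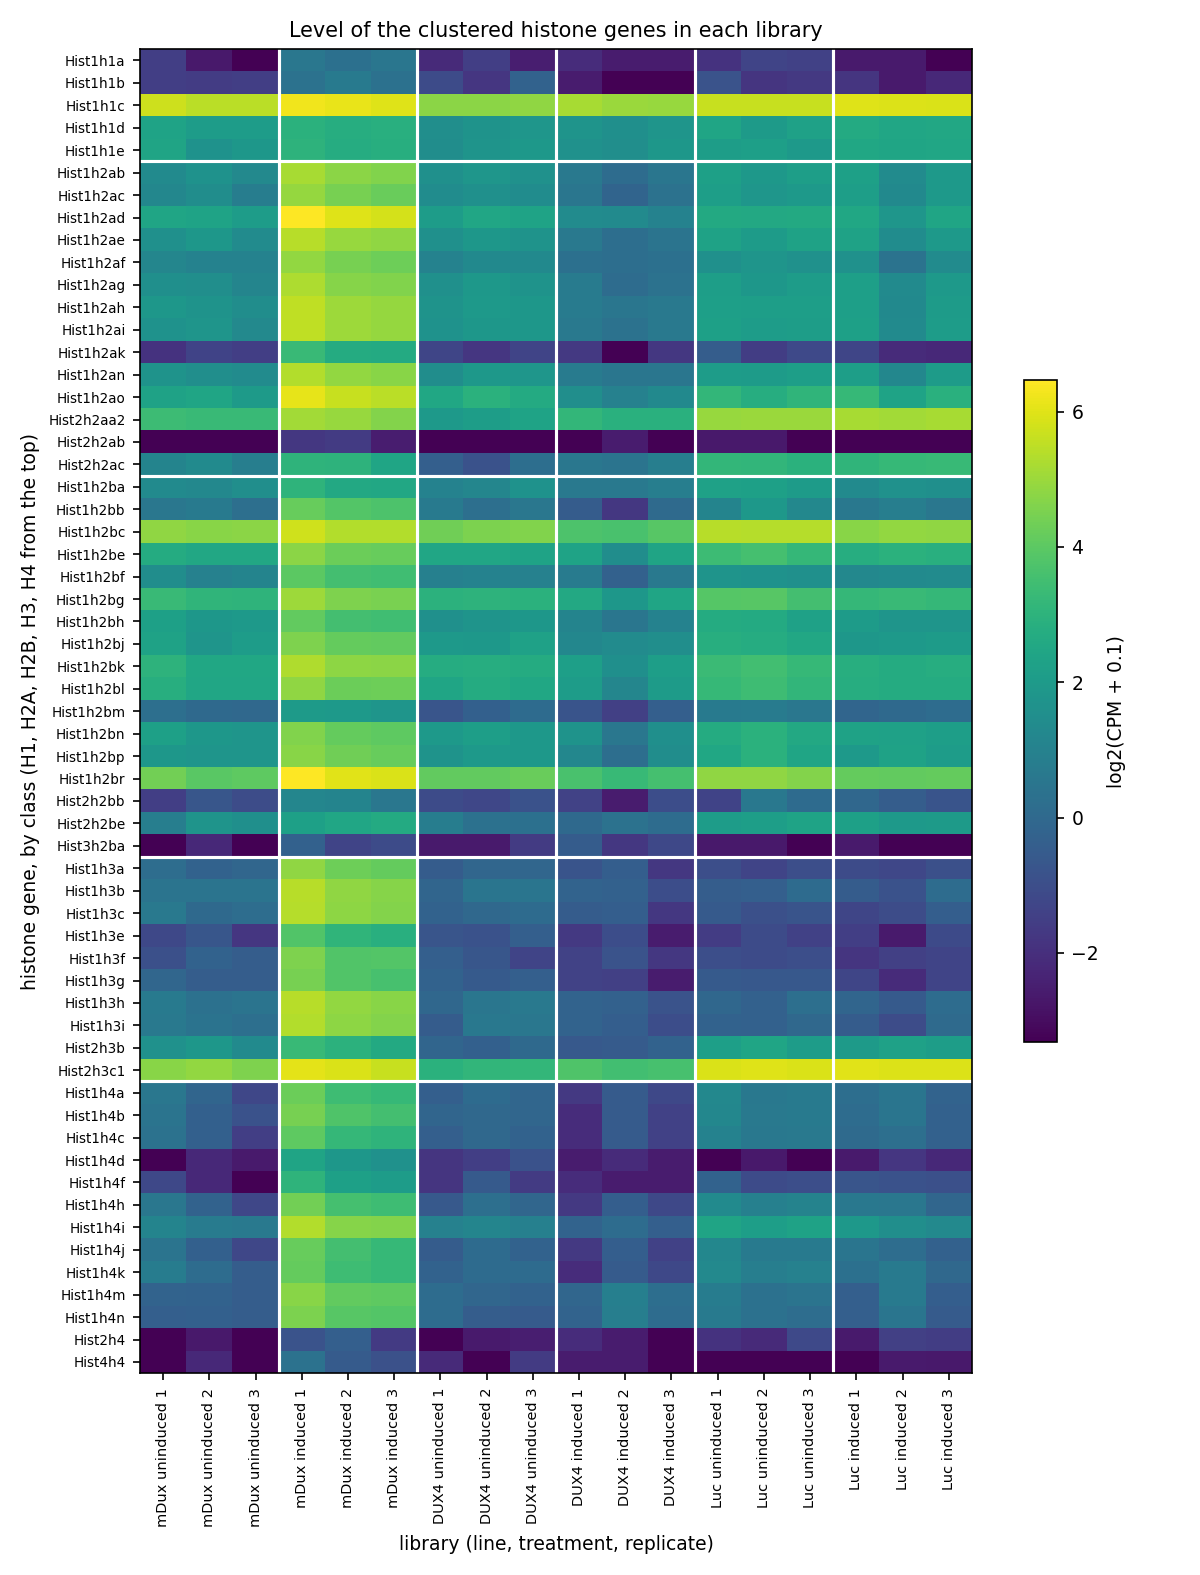
Level of each of the 59 members (rows, by class) in each of the 18 libraries (columns), as log2(CPM + 0.1). The 3 induced mDux columns are brighter than the uninduced ones for nearly all rows, while Hist1h1c, Hist2h3c1, Hist1h2bc and Hist1h2br are bright in most columns.

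The 4 members that failed the filter were Hist4h4, Hist3h2ba, Hist2h4 and Hist2h2ab, with 43, 47, 44 and 10 counts over all 18 libraries. Hist2h2ab lies at the 10-count limit of the rule, and the next member above it, Hist4h4, has 43 counts. Below the limit are Hist3h2bb-ps with 7, Hist1h1t and Hist1h2aa with 4 each and Hist3h2a with 0 counts. In the mDux line Hist4h4 went from 2 to 32 counts (ratio 16.96, exact 95% interval 4.33 to 146). Hist2h4 went from 1 to 19 counts (20.1, 3.20 to 837) and Hist3h2ba from 2 to 20 counts (10.6, 2.58 to 93.5). Hist2h2ab had 0 counts without and 7 with induction, at least 2.47-fold higher against a floor of 3 counts over the group. In counts, the direction in these 4 genes was the same as in the tested members.

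Position along the Hist1 cluster was compared next. The cluster consists of a block of 21 members at 21715711 to 22043658 and a block of 28 members at 23531044 to 23934156 on chromosome 13 (GRCm38). The median mDux log2 fold change was 3.56 in the first (1.91 to 4.91) and 3.65 in the second (0.59 to 5.71). Within the blocks, genes of different classes with different changes alternated. In 9 of 9 neighbouring H2A and H2B genes less than 1000 bases apart, the H2A gene had the larger fitted change, by 0.76 to 2.69 (median 1.29, all log2). For Hist1h2ad and Hist1h2bf, 173 bases apart, the changes were 3.85 and 2.57. For Hist1h2ac and Hist1h2bc they were 3.43 and 0.73. In the H2A class, the 5 genes with an octamer in the promoter window had a median of 3.47 and the 8 tested without had 3.56. In H2B the medians were 1.91 with (7 genes) and 2.27 without (7 genes). These splits are descriptions and were not tested.

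**Figure D3:**
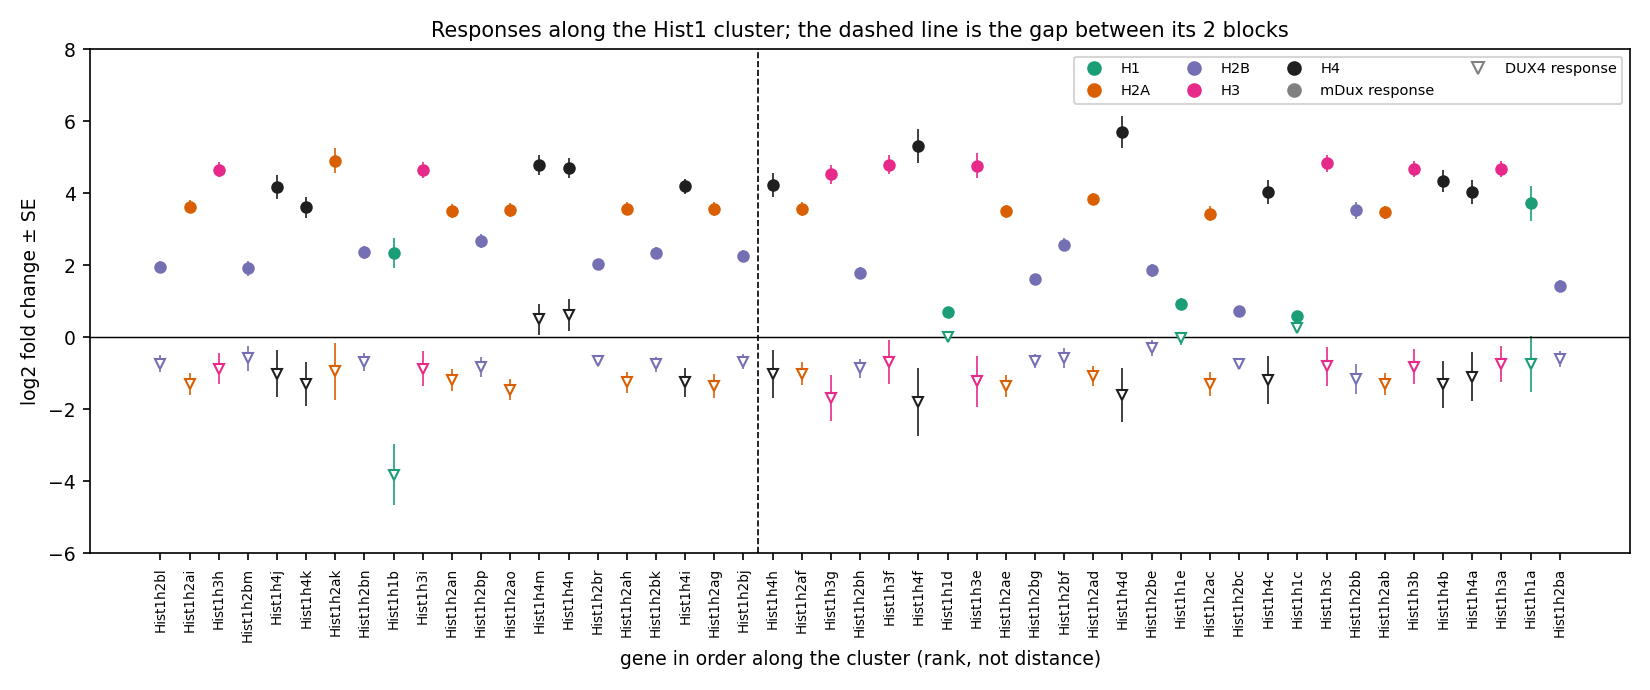
Fitted log2 fold change with its SE (error bars) of each of the 49 Hist1 members in the mDux (filled circles) and DUX4 (open triangles) lines, in order along chromosome 13 and coloured by class. Changes of 4 to 5 in H3 and H4 genes stand next to changes of about 2 in H2B genes in both blocks, and most DUX4 values lie below 0.

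Human DUX4 was followed by a different pattern. Of the 55 tested members 4 were called higher and 24 lower on induction, against 34.4% higher and 33.1% lower among all genes, and 27 were not called. The median log2 fold change was -0.82 (range -3.82 to 1.02) against 0 for all genes. The sum over the 59 members fell from 189 to 142 CPM (ratio 0.748, exact permutation p = 0.10, the smallest possible). By DESeq2 31 members were called lower, and by the fit of the DUX4 libraries alone 30. The share of all genes called by these alternatives was not counted.

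H2A genes of Hist1 moved most uniformly. Of 11, 10 were called lower, with log2 fold changes from -1.45 to -1.01. Reads may be shared among these copies, so neither the uniformity nor the count of 10 stands for separate genes. Hist1h2ad measured 4.13, 5.45 and 5.05 CPM without and 2.50, 2.44 and 1.94 CPM with induction (log2 fold change -1.08, SE 0.27, adjusted p = 0.00169). Hist1h2ao measured 5.63, 7.44 and 6.19 CPM and then 2.78, 1.85 and 2.41 CPM, a change of -1.45 (SE 0.29). In both genes every induced library lay below every uninduced one. Of the H2B genes 11 of 16 were called lower. Doxycycline alone gave a like fall of H2B in the Luc line. Summed H2B stood at 0.630 times its uninduced level in the DUX4 and 0.672 times in the Luc line. For summed H2A the ratios were 0.590 and 0.974. The DUX4 and Luc responses were not tested against each other. Hist1h2bc fell from 22.7 ± 2.19 to 13.6 ± 1.35 CPM (log2 fold change -0.73, SE 0.11) and Hist1h2br from 17.7 ± 0.615 to 11.3 ± 1.47 CPM (-0.65, SE 0.15).

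H3 and H4 genes of Hist1 had few counts in the DUX4 line and the test called few of them. Hist1h4i was called lower (-1.25, SE 0.40, adjusted p = 0.00937), with 1.88, 2.12 and 1.81 CPM before and 0.765, 0.990 and 0.669 CPM after. Hist1h3g was called lower at -1.68 (SE 0.63, adjusted p = 0.0249). The 2 H4 genes Hist1h4m and Hist1h4n had positive values, 0.50 (SE 0.43) and 0.62 (SE 0.44), that did not pass the test. The H1 gene Hist1h1b was also called lower and had 19 counts without and 1 count with induction, a ratio of 18.8 (exact 95% interval 2.99 to 783, counting error only).

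The members called higher with DUX4 were Hist1h1c and 3 Hist2 genes. Hist2h3c1 measured 7.57, 8.53 and 8.75 CPM without and 13.6, 11.2 and 12.3 CPM with induction (log2 fold change 0.58, SE 0.13, adjusted p = 0.000705). Hist2h2aa2 rose from 4.35 ± 0.658 to 7.80 ± 0.899 CPM (0.85, SE 0.15) and Hist2h2ac from 0.731 ± 0.306 to 1.46 ± 0.251 CPM (1.02, SE 0.33). None of the 3 overlapped between groups. Hist1h1c rose by 0.27 (SE 0.08, adjusted p = 0.00828 by edgeR), from 27.4 ± 0.856 to 32.9 ± 3.07 CPM. It also rose with doxycycline in the Luc line, from 49.9 to 61.8 CPM. The Hist2 cluster thus took 8.42% ± 0.447 of the summed histone CPM before and 16.7% ± 0.407 after DUX4 induction. In the same libraries the 5 fibroblast markers summed to 37.0 to 41.5 CPM before and 120 to 130 CPM after induction. Among these Pdgfra rose from 26.1 to 123 CPM and Tcf21 stayed at 0. Twist2 went the other way, from 13.2 to 3.87 CPM, as did Dpt, from 0.0674 to 0 CPM. Thy1 was at 0 and 0.0232 CPM. The 4 macrophage and blood markers, of which Ptprc and Hbb-bs stayed at 0, summed to 3.32 to 4.36 CPM before and 32.1 to 33.9 CPM after. Summed markers of differentiated muscle went from 10.9 to 12.6 CPM before to 4.22 to 4.80 CPM after. Those of myoblasts went from 875 to 902 CPM before to 1002 to 1039 CPM after. Within the myoblast sum Chrna1 rose from 363.5 to 840 CPM and Myf5 from 6.975 to 8.83 CPM. Des fell from 212.5 to 76.3 CPM, Cdh15 from 131 to 43.5 CPM and Itga7 from 109 to 43.7 CPM. Vcam1 fell from 36.6 to 5.55 CPM and Myod1 from 26.2 to 3.68 CPM. Pax7 was at 0.0214 and 0 CPM and Msc at 0.0427 and 0.0907 CPM. The part of these markers in the histone values was not tested.

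**Figure D4:**
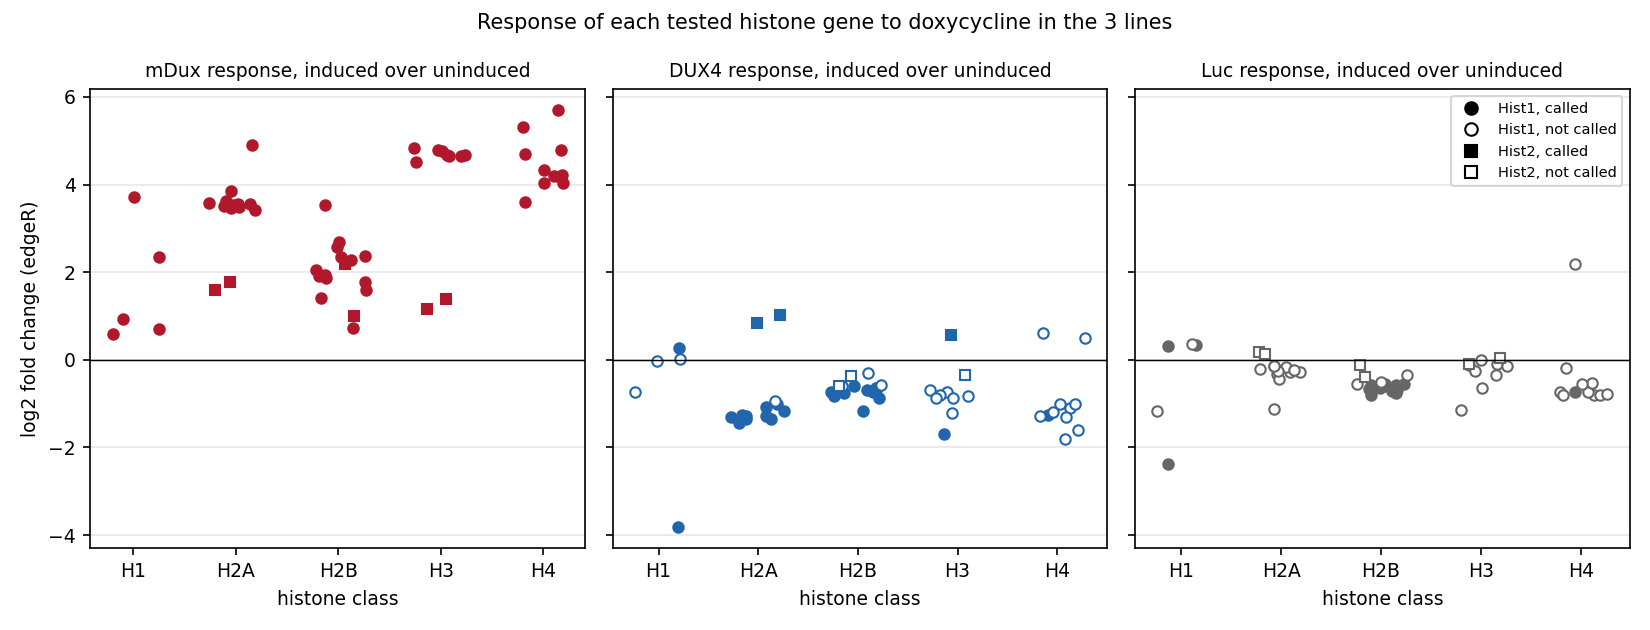
Log2 fold change (edgeR, induced over uninduced) of each of the 55 tested members in the 3 lines, by histone class; circles are Hist1 and squares Hist2 genes, filled where called at an adjusted p under 0.05. All points of the mDux line are filled and above 0, from 0.59 to 5.71, while most points of the other lines lie between -2 and 0.

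The difference between the responses to mouse Dux and human DUX4 was tested as an interaction contrast. It was called higher for mouse Dux in 54 of 55 members, with 32.9% of all genes called higher. The members that may have passed the filter only through induced mDux cultures are counted here too. By edgeR 0 were lower, 0 also at an unadjusted p under 0.05 and by DESeq2, against 32.3% of all genes. The median difference was 4.68 on the log2 scale, against 0.02 for all genes. The exception was Hist2h2ac, with a difference of 0.74 (SE 0.41, adjusted p = 0.118), so its rises in the 2 lines were not told apart. Among the 6 tested Hist2 genes the differences ran from 0.58 to 2.80, with 0.58 (SE 0.16) for Hist2h3c1 and 0.75 (SE 0.19) for Hist2h2aa2. Hist1h1c had the smallest difference called, 0.33 (SE 0.11, adjusted p = 0.0155), and with library totals alone as the scale it was 0.12 (adjusted p = 0.356). For Hist1h3b the difference was 5.48 (SE 0.57) and for Hist1h2ad 4.93 (SE 0.32).

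Doxycycline itself was controlled by the Luc line. There 2 members were called higher and 13 lower, against 14.7% and 16.4% of all genes, and 40 were not called. The median log2 fold change was -0.44 against 0 for all genes. The sum over the 59 members went from 391 to 345 CPM (ratio 0.882, exact permutation p = 0.10). Of the 13 lower members 11 were H2B genes. Hist1h2bc measured 42.9, 41.1 and 41.0 CPM without and 26.3, 29.2 and 28.9 CPM with doxycycline (log2 fold change -0.57, SE 0.10, adjusted p = 0.000136). Hist1h2br fell from 27.6 ± 2.04 to 17.7 ± 0.273 CPM (-0.64, SE 0.13). Hist1h1c rose from 49.9 ± 0.237 to 61.8 ± 1.42 CPM (0.31, SE 0.07) and Hist1h1d by 0.33 (SE 0.12, adjusted p = 0.0493).

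The other 2 lower members were an H4 and an H1 gene. Hist1h4i was called lower (log2 fold change -0.74, SE 0.24, adjusted p = 0.0257). Hist1h1a had 12 counts without and 2 with doxycycline (ratio 6.02, exact 95% interval 1.34 to 55.3). Summed H2A was 86.9 CPM without and 84.7 CPM with doxycycline (exact permutation p = 0.90), and summed H3 was 70.4 CPM without and 70.7 CPM with doxycycline (p = 0.90 by the same test). Without induced replicate 1, 2 or 3 the count of lower members was 8 each time, and without uninduced replicate 2 it was 7. Without any one of those 4 libraries, or without uninduced replicate 3, 1 member was called higher. In a fit of the Luc libraries alone 20 of 45 tested members were lower and 4 higher. The share of all genes called in these refits was not counted. In the Luc libraries the markers of differentiated muscle summed to 794 to 859 CPM without and 423 to 473 CPM with doxycycline. The 9 myoblast markers summed to 3303 to 3349 CPM without and 2545 to 2694 CPM with it. Among them Vcam1 went the other way, from 71 CPM without to 111 CPM with doxycycline. The 5 fibroblast markers, with Tcf21 at 0, summed to 28.4 to 32.7 CPM without and 45.5 to 47.6 CPM with it, and Pdgfra was at 25.6 and 40.2 CPM. The part of these markers in the histone values was not tested.

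The lines also differed before induction. These comparisons share the uninduced Luc libraries. Uninduced mDux cultures had 1 member higher and 35 lower than uninduced Luc cultures (32.2% and 33.1% of all genes), with a median log2 difference of -0.68. Uninduced DUX4 cultures had 1 higher and 29 lower (36% and 37% of all genes), with a median of -0.65. In the DUX4 line the 5 lowest log2 differences were those of Hist2 genes. Hist2h3c1 was at 60.1, 63.4 and 60.1 CPM in uninduced Luc cultures, at 26.4 ± 2.98 CPM in mDux (log2 difference -1.21, SE 0.09) and at 8.28 ± 0.627 CPM in DUX4 cultures (-2.89, SE 0.11, adjusted p = 1.04e-14). Hist2h2aa2 had log2 differences of -1.66 (SE 0.10) and -2.86 (SE 0.12), and Hist2h2ac had -1.99 and -3.52.

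Set beside uninduced Luc cultures, induced mDux cultures stood at 59.1 ± 8.88 against 61.2 ± 1.95 CPM for Hist2h3c1, and at 32.4 ± 9.30 against 0.757 ± 0.182 CPM for Hist1h3b. These pairs of groups were not tested. The 8 Hist1 H3 genes had positive log2 differences before induction, from 0.29 to 1.17 in the mDux and from 0.25 to 1.01 in the DUX4 line. Of these, Hist1h3a in the mDux line was called (1.17, SE 0.49, adjusted p = 0.0419). That call was lost without any 1 of the 6 libraries (adjusted p from 0.0554 to 0.111 by edgeR). The count of 35 lower members was 18 without uninduced mDux replicate 3, 23 without uninduced mDux replicate 2 and 21 without uninduced Luc replicate 1. Hist1h4d was called higher in uninduced DUX4 than Luc cultures on 13 counts against 1 (ratio 14.0, exact 95% interval 2.10 to 594). Summed markers of differentiated muscle and of myoblasts were lower in both other uninduced lines than in uninduced Luc cultures. So was the endothelial marker Cdh5, at 25.4 CPM in uninduced Luc cultures and 0 in both other uninduced groups. Of the myoblast markers, Pax7 and Vcam1 went the other way in the mDux line. Pax7 was at 15.1 CPM there against 0.161 CPM in uninduced Luc cultures, and Vcam1 at 91.2 against 71 CPM. The part of these markers in the contrast was not tested.

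Sequence features of the members were set beside the mDux response. The 10 tested members with at least 80% unique 50-base stretches were all called higher, with a median log2 fold change of 2.10. They were Hist1h1a to Hist1h1d, Hist1h2ac, Hist1h2be, Hist1h2bh, Hist1h4c, Hist1h4d and Hist2h2be. The 16 members with under 20% had a median of 3.52. These shares were computed on GENCODE transcripts, which can be far longer than the RefSeq gene. For Hist1h4d they were 1138 against 402 bases, and for Hist1h2ac 2482 against 487. Because the annotation used for counting is not given, a high unique share does not set shared reads aside. Taking from each protein the member with the most counts left 24 tested genes, all called higher, with a median of 2.12. In the DUX4 line 12 of these 24 were lower and 4 higher. The 37 tested members with a stem-loop in the annotated transcript had a median mDux change of 3.53, and the 3 without it, Hist1h2bc, Hist1h2br and Hist2h2be, changed by 0.73, 2.04 and 1.01. The 12 tested members with 500 or more annotated bases after the stop codon had a median of 1.47 and the other 43 a median of 3.57. Members with long 3' ends include the abundant Hist1h1c, Hist1h2bc and Hist2h3c1, so these splits are not independent of level or class.

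Genes that act around histones were described from 6 lists, and here too each count stands beside the percentages of all genes given above. DNA replication genes, which share S phase with histone genes, moved in both directions with mouse Dux: 15 of 37 were called higher and 8 lower, with a median log2 fold change of 0.05. The replication clamp gene Pcna rose from 156 ± 3.62 to 355 ± 62.7 CPM (log2 fold change 1.18, SE 0.08) and the origin recognition gene Orc1 by 1.13 (SE 0.15). The helicase gene Mcm6 fell from 151 ± 9.85 to 94.0 ± 5.50 CPM (-0.68, SE 0.05). With DUX4, 36 of 37 were lower and 1 higher, with a median of -1.67. Cdc6, which loads the helicase at origins, fell there from 31.2 ± 0.217 to 3.59 ± 0.633 CPM (-3.11, SE 0.14). In the Luc line 33 of 37 were lower, with a median of -0.99, so replication genes fell with doxycycline in the control line too.

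Before induction all 37 replication genes were higher in the mDux and in the DUX4 line than in the Luc line, with medians of 1.11 and 2.14. This is the opposite direction to most histone members in the same contrasts. Tk1, thymidine kinase, stood at 68.2 ± 1.57 and 179 ± 4.42 CPM against 13.9 ± 0.736 CPM.

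Factors of histone mRNA 3' end formation, transcription and turnover moved in both directions with mouse Dux, with 12 of 22 higher and 6 lower (median 0.24). Slbp, which binds the stem-loop, rose from 33.1 ± 1.88 to 61.9 ± 4.52 CPM (0.90, SE 0.07, adjusted p = 6.16e-10), and the S-phase cyclin Ccne2 rose by 1.00 (SE 0.07). Zfp473, a component of the U7-dependent processing machinery, was lower at 1.11 ± 0.283 against 1.72 ± 0.193 CPM. With DUX4, 13 of 22 were lower and 4 higher, and Ccne2 fell (-1.54, SE 0.08). Slbp differed between the 2 responses by 1.56 (SE 0.09).

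Of 16 general cleavage and polyadenylation factors, 8 were higher and 4 lower with mouse Dux (median 0.13). Clp1, an RNA kinase of the cleavage complex, rose from 17.1 ± 1.23 to 88.4 ± 6.88 CPM (2.38, SE 0.09, adjusted p = 1.02e-14). Papolg, a poly(A) polymerase, rose from 19.8 ± 1.00 to 78.0 ± 3.58 CPM (1.98, SE 0.07), and Cstf2t, a paralogue of the cleavage stimulation factor Cstf2, from 97.9 ± 0.793 to 250 ± 6.82 CPM (1.35, SE 0.05). With DUX4, 3 of 16 were higher, among them Cstf2t (0.81, SE 0.05), and 10 lower. In the Luc line 1 was higher and 1 lower. The interaction contrast was 2.48 (SE 0.13) for Clp1.

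Histone genes outside the clusters, most of which normally yield polyadenylated transcripts, moved less uniformly. With mouse Dux 4 of 11 were higher and 6 lower (median -0.24), and the largest rise was that of H2afx, the H2A variant phosphorylated at DNA breaks, from 32.3 ± 0.617 to 67.6 ± 16.6 CPM (1.07, SE 0.12). The centromeric H3 variant Cenpa fell from 46.9 ± 1.61 to 25.4 ± 3.40 CPM (-0.88, SE 0.07) and the H2A.Z-type gene H2afv also fell (-0.98, SE 0.11). With DUX4, 9 of 11 were lower, Cenpa most (-2.94, SE 0.08). Of 23 histone chaperones 8 were higher and 3 lower with mouse Dux and 4 higher and 14 lower with DUX4. Nasp, which binds H3 and H4, rose by 0.77 (SE 0.05) with mouse Dux, and Asf1b, which carries H3 and H4 to the replication fork, fell with DUX4 (-2.22, SE 0.10).

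**Figure D5:**
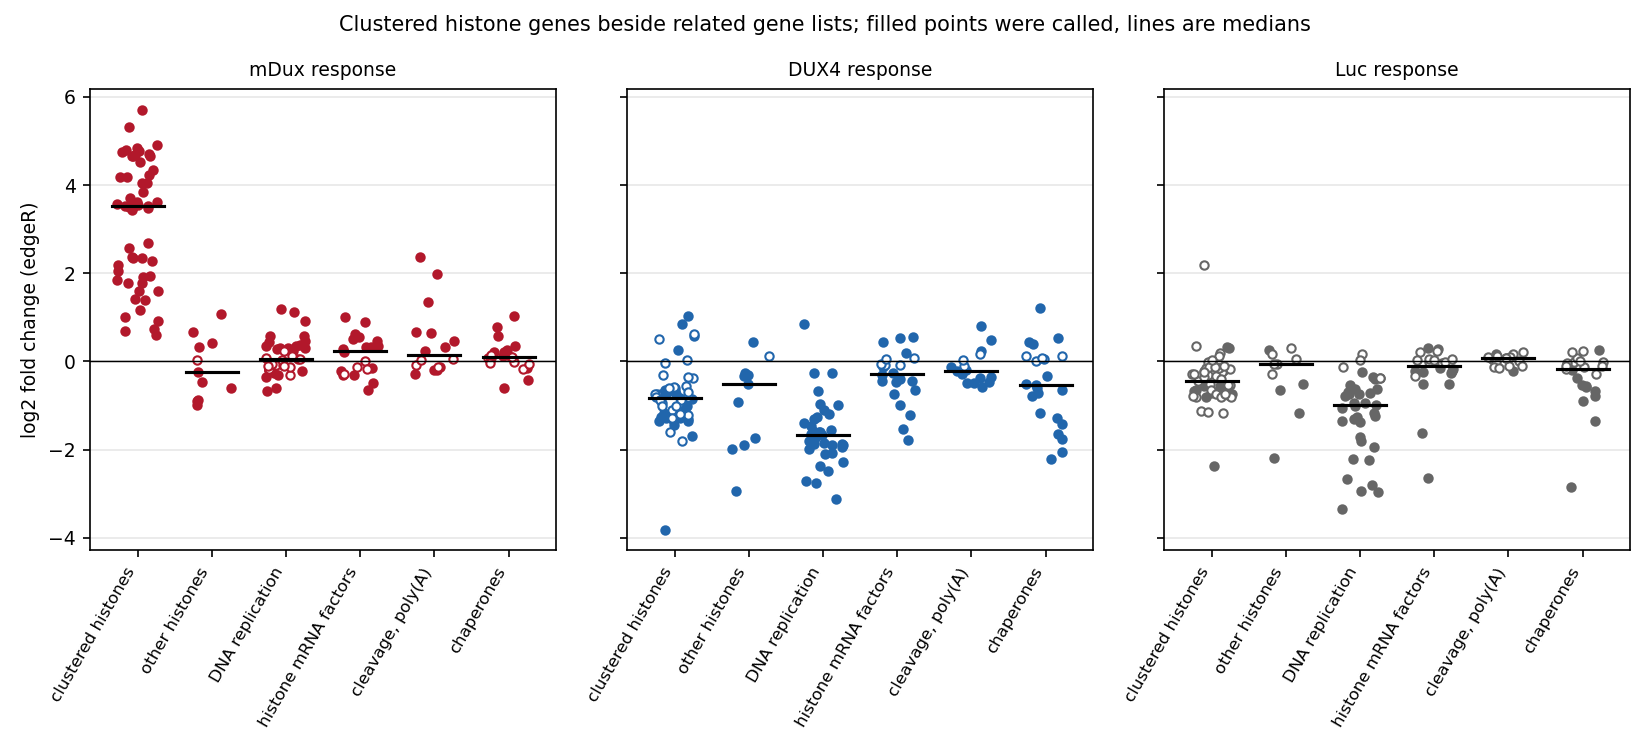
Log2 fold change of the 55 tested clustered histone genes beside the tested genes of 5 related lists in the 3 lines; filled points were called at an adjusted p under 0.05 and black lines are medians. In the mDux line the clustered histone genes have a median of 3.52 while the medians of the lists lie between -0.24 and 0.24, and in the DUX4 and Luc lines the DNA replication genes are lowest, with medians of -1.67 and -0.99.

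Other RNAs that normally lack a poly(A) tail were looked at in the same libraries. Of 1185 listed genes with a row, 12 passed the filter, among them host genes caught by the prefix Mir, and 3 were higher and 3 lower with mouse Dux. The summed level of all 1185 genes was 60.5 to 65.4 CPM in uninduced and 59.5 to 65.6 CPM in induced mDux cultures, so these ranges overlapped. This sum includes the host genes, so it is not a measure of RNAs without a tail alone. Small nucleolar RNA genes (symbols starting with Snora or Snord, singled out after their values were seen) summed to 2.78, 2.87 and 3.57 CPM without and 5.92, 6.91 and 7.62 CPM with induction of mouse Dux. They summed to 2.56 to 4.63 CPM without and 1.98 to 2.54 CPM with induction of DUX4. Whether poly(A) selection differed between these libraries was not tested.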

How the data were processed

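The deposited table held whole-number counts per gene for 18 libraries. Per the submitters' processing notes the authors used CASAVA, TopHat2 2.0.12 and Bowtie2 2.2.3 with the mouse build mm10, and per the labels the libraries were poly(A)-selected. Not given in the sources used here are the counting program, its annotation, strand setting and handling of reads shared by similar genes, and the pool or lane of each library. Of 24028 genes, 5 had no symbol and 5017 no count.

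Counts were tested with edgeR 4.0.16 in R 4.3.3 (quasi-likelihood test, one model of 6 group means, TMM scaling, filterByExpr, Benjamini-Hochberg adjustment over 13602 genes). The biological coefficient of variation was 6.25%. Summed levels were compared by exact two-sided permutation tests. Intervals on ratios of few counts are exact 95% binomial intervals and cover counting error only. On data simulated for the mDux response over 13602 genes, 90% of changes of size 1 and 97% of size 2 (log2) were recovered. There 4.59% of calls were false. Only 100 genes were changed at each size, equally up and down, without a shift in composition or an odd library. In the real mDux response 34.1% of genes were called higher and 34.8% lower, so these rates do not carry over to it. Alternatives were other scalings, no filter, DESeq2 1.42.0, a replicate block, fits of fewer groups and leaving out each library.

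The labels number the replicates of each group. Same-numbered mDux libraries deviated together (correlations 0.400, 0.219 and 0.202), and those of the DUX4 and Luc lines did not (-0.0449 to 0.0484), so by a limit of 0.1 the numbers pair the mDux libraries. The pairing comes from the data and not from the labels. For mDux replicates 2 and 3 it is little clearer than with another number, since the highest correlation with a differently numbered library was 0.212 and 0.187.

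The members and gene lists were chosen with earlier results of these data known. Named members were the 12 with the highest mean level, up to 10 higher and 10 lower per comparison by size of the called change, those near the count limit and those sharing a protein with one of these. From each list up to 4 called genes per comparison were named by size. Hist1h1e, Hist1h2bf, Hist1h2bn, Hist1h2bp and the neighbouring pairs were added after their values were seen, as was the replicate block on the mDux libraries alone. Transcripts, coding sequences and stem-loops came from GENCODE vM21 and promoters from RefSeq.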

Additional observations from a re-analysis of the deposited data

Results flagged for a closer look

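The responses of the histone genes to mouse Dux and human DUX4 were flagged because the difference between them was itself tested, by edgeR's interaction contrast on groups of 3 libraries. It was called in 54 of 55 tested members, every time in the direction of a larger rise with mouse Dux, where 32.9% of all genes were called that way. The members with the largest fitted differences were Hist1h4d (7.31 on the log2 scale), Hist1h4f (7.12), Hist1h3g (6.21), Hist1h1b (6.16) and Hist1h3e (5.98). They were followed by Hist1h2ak (5.85), Hist1h4b (5.65), Hist1h3c (5.64), Hist1h3h (5.53) and Hist1h3i (5.52). Of these, Hist1h4d, Hist1h4f, Hist1h1b, Hist1h3e and Hist1h2ak may have passed the low-count filter only through induced mDux cultures. Their calls and places in this order are therefore not independent of the filter. The fitted values of the H4 gene Hist1h4d and the H1 gene Hist1h1b rest on 3 counts in uninduced mDux and 1 count in induced DUX4 cultures. They so depend on the prior count of the fit. Others also rest on few counts. In uninduced mDux and induced DUX4 cultures Hist1h4f had 6 and 4 counts and Hist1h2ak 11 and 6. In induced DUX4 cultures Hist1h3g had 9 and Hist1h3e 10 counts. The H3 gene Hist1h3c, with 49 and 1341 counts in the mDux line and 39 and 22 counts in the DUX4 line, does not rest on such low counts.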

How the results depend on the processing

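Every alternative run left all tested members higher in the mDux response (55 of 55, and 59 of 59 without the low-count filter), with a median log2 fold change of 3.29 to 3.61 when 1 library was left out, and the interaction at 53 to 55 members. No result changed direction under an alternative.

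The counts of few members moved. Shares of all genes called under the alternatives were not counted, so none stands beside the counts below. In the Luc line 1 member was higher with median-of-ratios scaling, without the low-count filter and by DESeq2, and with only the Luc groups in the fit 4 were higher and 20 lower of 45 tested. Leaving out 1 library gave 1 to 2 higher and 7 to 11 lower. Between uninduced mDux and Luc lines 2 members were higher with library totals as the scale, without the filter and by DESeq2, and 4 with only those groups in the fit. Leaving out 1 library gave 0 higher and 18 to 33 lower. Between uninduced DUX4 and Luc lines 2 were higher by DESeq2. The DUX4 median ran from -0.94 to -0.75 when 1 library was left out. The cause was not tested.

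With the replicate block, 2 members were higher than in uninduced Luc cultures in the mDux and in the DUX4 line in place of 1. In the paired mDux line the block gave 55 members higher with a median of 3.49, and 3.51 with the mDux libraries alone. In the DUX4 line 28 were lower with the block, and in the Luc line 14. The block moved no other count by over 1.5 times.

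Of single named members, leaving out 1 library kept 821 values, lost 72 calls and added 1, and the other alternatives kept 760, lost 9 and added 9. Library totals as the only scale moved the median of all genes by -0.25 in the mDux response. Depth limits members with few counts: 4 could not be tested, and calls of Hist1h1a, Hist1h1b and Hist1h4d rest on 1 to 3 counts in a group.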
